A study of Mus musculus with 10 samples.

Results

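The genes described here are 10 cell cycle regulators around the G1 arrest that TGF-β causes in many epithelial cells: the CDK inhibitors Cdkn1a, Cdkn1b, Cdkn1c, Cdkn2a, Cdkn2b, Cdkn2c and Cdkn2d, the MYC family genes Myc and Mycn, and Trp53. They were taken by symbol from a table of 50763 genes, and all 10 were found. RNA of lens epithelium from 3-week-old FVB/N mice of both sexes was sequenced as 3 libraries of wild-type (WT) mice, 3 of OVE853 mice and 4 of OVE918 mice. In both transgenic lines, which are inbred and homozygous, the lens-specific αA-crystallin promoter drives a secreted, constitutively active human TGF-β1, and anterior subcapsular plaques form. Each library was made from a pool of mice, up to 9 for WT and OVE853 and up to 7 for OVE918, and held the whole explanted epithelium, so that plaque and monolayer were not separated. The p-values below set the difference between groups against the spread between such pools.

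The Cip/Kip inhibitors p21 (Cdkn1a), p27 (Cdkn1b) and p57 (Cdkn1c) bind cyclin-CDK complexes, whereas the INK4 inhibitors p16 (Cdkn2a), p15 (Cdkn2b), p18 (Cdkn2c) and p19INK4d (Cdkn2d) bind CDK4 and CDK6 and keep cyclin D away. In many epithelial cells TGF-β acts through SMAD proteins to raise p15 and p21 and to repress MYC, which otherwise blocks the p15 and p21 promoters together with its partner MIZ1. p53, the product of Trp53, is the main inducer of p21 after DNA damage, and p57 and p27 are the inhibitors known from the exit of lens cells from the cycle at the start of fiber differentiation.

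The upstream windows of Cdkn1a, Cdkn2b and Mycn are shown because SMAD, p53 and E2F proteins are known to act on such regions of these genes. Each window is the 250 bases before an annotated RefSeq transcription start in GRCm38.p6, printed 5′ to 3′ on the strand of the gene, and 8 of the 10 genes had at least 1 window (11 windows in all). Capitals mark 5 short motifs, searched on both strands: CAGAC (a SMAD element), GGGCGG (a GC box), CACGTG (an E-box of MYC and MAX), ACATGT (the core of a p53 half-site) and TTGGCGC (an E2F-type site). The distal Cdkn1a window lies at chr17:29090729-29090978 on the plus strand, the proximal Cdkn1a window at chr17:29093519-29093768 on the plus strand, the Cdkn2b window at chr4:89311033-89311282 on the minus strand and the Mycn window at chr12:12941837-12942086 on the minus strand.
Cdkn1a distal: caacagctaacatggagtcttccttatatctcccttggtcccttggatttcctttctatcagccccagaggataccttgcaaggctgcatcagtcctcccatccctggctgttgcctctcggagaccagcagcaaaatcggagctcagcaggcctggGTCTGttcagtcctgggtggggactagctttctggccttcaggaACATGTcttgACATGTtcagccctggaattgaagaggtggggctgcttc
Cdkn1a proximal: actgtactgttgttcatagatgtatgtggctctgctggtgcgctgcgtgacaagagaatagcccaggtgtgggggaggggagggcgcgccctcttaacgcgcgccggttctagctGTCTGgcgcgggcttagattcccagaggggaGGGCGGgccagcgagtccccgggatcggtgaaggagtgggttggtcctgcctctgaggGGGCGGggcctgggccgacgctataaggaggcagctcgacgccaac
Cdkn2b: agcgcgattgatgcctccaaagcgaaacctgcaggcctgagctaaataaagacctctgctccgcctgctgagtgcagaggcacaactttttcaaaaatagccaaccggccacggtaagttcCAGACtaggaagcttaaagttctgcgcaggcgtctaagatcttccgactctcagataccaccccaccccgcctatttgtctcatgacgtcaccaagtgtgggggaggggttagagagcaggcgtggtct
Mycn: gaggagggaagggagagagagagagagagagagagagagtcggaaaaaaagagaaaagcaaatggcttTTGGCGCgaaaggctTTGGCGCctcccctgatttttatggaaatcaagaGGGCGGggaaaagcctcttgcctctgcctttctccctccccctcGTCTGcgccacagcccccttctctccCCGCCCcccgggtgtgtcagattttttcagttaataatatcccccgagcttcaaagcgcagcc

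The distal Cdkn1a window held 2 copies of ACATGT, which start 49 and 39 bases before the transcription start, and 1 CAGAC. The p53 core ACATGT occurred in 4.58% of the 32851 such windows of all genes and CAGAC in 42.2%. The proximal Cdkn1a window held 1 CAGAC and 2 GC boxes, a motif found in 32.7% of all windows, and the Cdkn2b window held 1 CAGAC. In the Mycn window there were 2 copies of TTGGCGC, a motif found in 1.97% of all windows, beside 1 CAGAC and 2 GC boxes. CACGTG, present in 6.02% of all windows, was in 0 of the 11, and the Trp53 window held none of the 5 motifs. These matches describe letters in a window and do not show that a protein binds there.

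Total counts on genes lay between 24073311 and 31908525 per library. Tgfb1 was read at 54.1 ± 6.38 CPM in the 3 WT libraries (SD), against 348 ± 11.2 CPM for OVE853 (n = 3) and 772 ± 77.7 CPM for OVE918 (n = 4), above WT in both lines as the labels imply. By the authors' account, this count joins reads of the mouse gene itself with reads of the human transgene that map to it. CPM scales a gene's count by the library's counts on tested genes and its TMM factor. The 7 lens epithelial markers Pax6, Foxe3, Six3, Cdh1, Gja1, Cryaa and Cryab were detected in every library. Their sum was 152917 to 158025 CPM in WT, 103206 to 117654 CPM in OVE853 and 127484 to 194576 CPM in OVE918. In WT most of it was Cryaa and Cryab, with means of 116046 and 36879 CPM. Each line had 3 of the 7 lower (Six3, Cdh1 and Gja1) and 0 higher at an edgeR FDR of at most 0.05. Mean Gja1 was 541 CPM for WT, 109 CPM for OVE853 and 65.4 CPM for OVE918. WT replicate 3 stood apart from the other WT libraries. There the 6 retinal neuron markers summed to 535 CPM (45.6 and 58.3 CPM in the other WT libraries, 8.4 to 78.7 CPM in the transgenic ones). In the same library the 5 endothelial markers summed to 113 CPM (12.9 to 22.9 CPM in the other 9 libraries) and the 4 corneal epithelial markers to 1611 CPM. The corneal sum was 236 and 933 CPM in the other WT libraries and 26.5 to 92.4 CPM in the transgenic ones, so that every WT library lay above both lines. Its 1 tested marker was lower in both lines (log2 fold changes -3.65 in OVE853 and -4.11 in OVE918, edgeR FDR 0.0123 and 0.00279). The part of these tissues in the member levels was not tested, and the values without WT replicate 3 are given beside the results that it decides. The 8 macrophage markers summed to 17.0 to 42.1 CPM in WT, 43.7 to 68.6 CPM in OVE853 and 29.0 to 74.8 CPM in OVE918, and the 9 lens fiber markers to 34098 to 65419, 30498 to 48518 and 44709 to 81272 CPM. Of 8 tested fiber markers, 0 passed in either line, but all 8 had a log2 fold change above 0 in OVE918 (median 0.55). In OVE853 2 of the 8 did (median -0.24). Dnase2b, the fiber marker below the filter, had means of 2.02 CPM in WT, 12.3 CPM in OVE853 and 19.5 CPM in OVE918. All 4 tested macrophage markers had log2 fold changes above 0 in both lines, and 0 passed in OVE853 and 1 (C1qa) in OVE918 (edgeR FDR 0.0447). The 5 Müller glia markers summed to 3502 to 5240, 2049 to 2390 and 2435 to 2916 CPM and the 6 non-pigmented ciliary epithelium markers to 1577 to 1857, 1420 to 1643 and 937 to 1178 CPM. Most of the glia sum in WT was Dkk3 (mean 3430 CPM). Of the 5 glia markers, 5 were lower in OVE853 and 4 in OVE918, with list medians of -1.69 and -1.76 (edgeR, FDR of at most 0.05). Within the ciliary sum the aquaporin gene Aqp1 had means of 658 CPM in WT, 1260 CPM in OVE853 and 830 CPM in OVE918. Of the 6 ciliary markers, 4 were lower and 1 (Aqp1) higher in OVE853 and 5 were lower in OVE918, with list medians of -2.20 and -2.80 on the log2 scale (edgeR, FDR of at most 0.05). No marker of these 4 lists was at 0 in a library, and their part in the results below was not tested.

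Per transcript length the CDK inhibitor pool of the WT lens epithelium was mostly Cdkn1c. On the FPKM scale (counts scaled by exon length and library total) the WT means were 147 for Cdkn1c, 16.8 for Trp53, 12.4 for Mycn, 11.5 for Cdkn1b, 8.16 for Cdkn2d, 3.02 for Cdkn2c, 1.91 for Cdkn1a, 1.26 for Myc, 1.08 for Cdkn2b and 0.29 for Cdkn2a. Neighbours in this order did not overlap for Cdkn1c and Trp53, for Cdkn1b and Cdkn2d and for Cdkn2d and Cdkn2c, and the other neighbouring pairs overlapped between WT libraries. Cdkn1c made up 88.5, 88.3 and 72.4% of the summed FPKM of the 7 inhibitors in WT replicates 1 to 3, 83.9 to 86.4% in OVE853 and 71.7 to 79.3% in OVE918. Cdkn1a made up 0.68, 0.78 and 2.48% in WT, 1.26 to 2.20% in OVE853 and 3.92 to 8.18% in OVE918, so that its share in every OVE918 library lay above those in the other 6 libraries. Cdkn2b, at 0.19 to 1.72% in WT and 0.68 to 1.08% in OVE853, made up 1.42 to 3.18% in OVE918, which overlaps with WT replicate 3. A bulk library cannot tell fewer cells that express a gene from less RNA per cell.

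**Figure D1:**
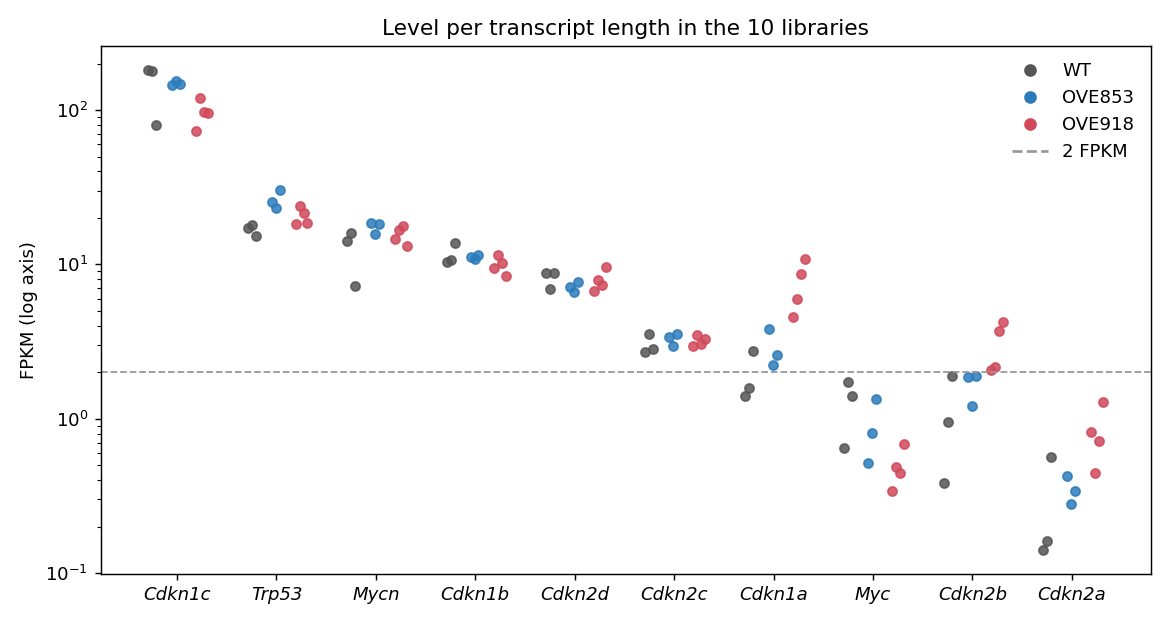
FPKM (log axis) of each gene in the 10 libraries, ordered by the WT mean and coloured by group, with the dashed line at 2 FPKM. Cdkn1c lies above all other genes in every library, and Cdkn2a and Myc lie under 2 FPKM in all 10.

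Genes with at least 2 FPKM in at least 5 libraries were tested, which kept 11092 genes and 7 of the 10 members. Cdkn2b reached 2 FPKM in 4 libraries and Cdkn2a and Myc in 0, and these 3 were tested only in an alternative that applied edgeR's own filter (filterByExpr) and kept 18058 genes and all 10 members. In OVE853, 1 of the 7 members passed a false discovery rate (FDR) of 0.05, where 15.8% of all tested genes passed, and in OVE918 2 of the 7 passed, where 19% of all tested genes did. With filterByExpr the counts were 1 of 10 (13.6% of all genes) and 3 of 10 (16.9%). The first counts are 14.3 and 28.6% of the tested members, and with so few genes these shares are not far from those of all genes. Between OVE918 and OVE853, 0 of 7 members passed by the quasi-likelihood test of edgeR, Benjamini-Hochberg adjusted (1.3% of all genes), with 1 at an unadjusted p under 0.05, and 1 of 7 passed with DESeq2. With filterByExpr the count was 0 of 10 (0.377% of all genes), with 3 at an unadjusted p under 0.05. Groups did not overlap for 1 of the 10 members in OVE853 against WT (41.4% of all genes), for 3 in OVE918 against WT (25.8%) and for 5 between the lines (24.3%). Both line contrasts share the 3 WT libraries, so that they are not independent of each other.

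**Figure D2:**
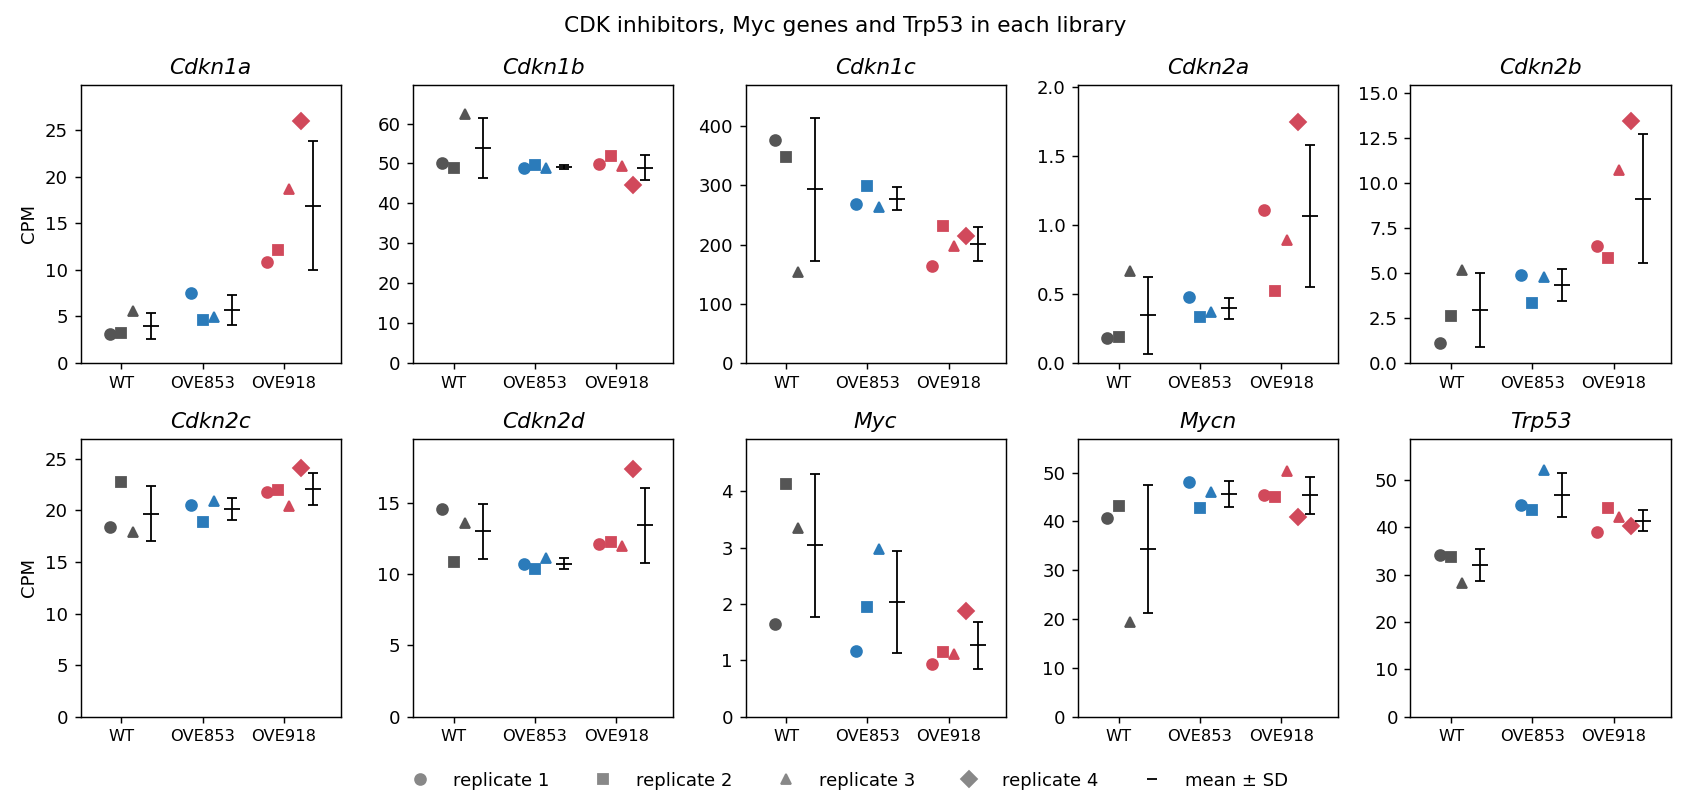
CPM of the 10 genes in every library on linear axes from 0, with replicate numbers as symbols and the mean ± SD of each group beside them. All 4 OVE918 libraries lie above all WT libraries for Cdkn1a, Cdkn2b and Trp53, and WT replicate 3 lies far below the other WT libraries for Cdkn1c and Mycn.

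Cdkn1a, which encodes p21, was the member with the clearest change and was elevated in OVE918. Its level was 3.07, 3.25 and 5.62 CPM in WT replicates 1 to 3, then 7.49, 4.61 and 4.95 CPM in the OVE853 libraries and 10.8, 12.1, 18.6 and 25.9 CPM in the OVE918 libraries. All OVE918 libraries lay above all others, whereas OVE853 and WT overlapped. Relative to WT, Cdkn1a rose 4.21-fold in OVE918 (log2 fold change 2.07, SE 0.35, FDR 0.00222 by the quasi-likelihood test of edgeR, Benjamini-Hochberg adjusted). This call was made in all 10 fits that left out a library, with log2 fold changes from 1.79 to 2.41, and under all 10 other settings. In OVE853 the log2 fold change was 0.51 (SE 0.37, FDR 0.346, edgeR), with a 95% interval from -0.30 to 1.32. The difference between the lines was 1.57 on the log2 scale (95% interval 0.81 to 2.32) and missed the threshold with an edgeR FDR of 0.0554, over a range of 0.000157 to 0.245 across the alternatives. It passed with DESeq2, with a fit of only these lines, with voom sample weights and without WT replicate 3 or OVE918 replicate 2.

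Cdkn1b and Cdkn1c, the other Cip/Kip genes, did not pass edgeR's test in either line with all libraries. Cdkn1b, encoding p27, stood at 50.2, 48.8 and 62.4 CPM in WT, 48.8 to 49.7 CPM in OVE853 and 44.6 to 51.9 CPM in OVE918. Apart from WT replicate 3 these levels lie within a narrow band, and the 95% intervals of the log2 fold change were -0.36 to 0.10 in OVE853 and -0.35 to 0.08 in OVE918. Cdkn1c, which encodes p57 and is transcribed from the maternal allele, stood at 376, 349 and 155 CPM in WT, at 269, 299 and 263 CPM in OVE853 and at 163, 231, 197 and 215 CPM in OVE918. WT replicate 3 was the lowest library of all, and without it every OVE853 library lay below WT and every OVE918 library below OVE853. The log2 fold change in OVE918 was -0.54 (SE 0.25, FDR 0.162, edgeR), and without WT replicate 3 it was -0.85 (FDR 0.00116). With all libraries it passed with voom sample weights (-0.79, FDR 0.00338). In OVE853 the log2 fold change was -0.08 (FDR 0.852, edgeR), and without WT replicate 3 it was -0.39 (FDR 0.111). OVE918 and OVE853 did not overlap for Cdkn1c, a difference of -0.46 on the log2 scale (95% interval -1.02 to 0.10, FDR 0.295, edgeR). With voom sample weights this difference passed (-0.51, FDR 0.0273).

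Of the INK4 genes, Cdkn2b (p15), a known SMAD target, lay higher in OVE918. Its level was 1.11, 2.60 and 5.17 CPM in WT, 4.90, 3.32 and 4.78 CPM in OVE853 and 6.52, 5.86, 10.7 and 13.4 CPM in OVE918. The OVE918 libraries lay above all others, and the WT libraries were widely spread. With filterByExpr, Cdkn2b rose 3.13-fold in OVE918 (log2 fold change 1.64, SE 0.47, FDR 0.0368, edgeR's quasi-likelihood test), and the call was lost in 6 of the 10 fits without a library and in 3 of 8 other settings, with FDR up to 0.0898. Those libraries were WT replicates 1 and 2, OVE853 replicates 1 and 3 and OVE918 replicates 3 and 4, and without WT replicate 3 the log2 fold change was 2.28. In OVE853 the value was 0.56 (FDR 0.451, filterByExpr), with a 95% interval from -0.52 to 1.63.

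Cdkn2a lies beside Cdkn2b on chromosome 4 (GRCm39, 89192708 to 89212890 on the minus strand, with Cdkn2b at 89223204 to 89229276) and encodes both p16 and the p53 activator ARF from different first exons. The gene counts do not separate these products, and they were low: 4, 5 and 19 counts in WT, 16, 9 and 11 in OVE853 and 26, 14, 24 and 38 in OVE918. In CPM the OVE918 libraries (0.52 to 1.74) lay above OVE853 (0.33 to 0.48) and overlapped with WT through its replicate 3 (0.18, 0.19 and 0.66). The log2 fold change in OVE918 was 1.61 (SE 0.55, FDR 0.0678, edgeR with filterByExpr), and without WT replicate 3 it was 2.49 (FDR 0.0149). It also passed with DESeq2 (FDR 0.041), with voom sample weights (FDR 0.0133) and without OVE918 replicate 2 (FDR 0.045). In OVE853 it was 0.19 (FDR 0.847), with an interval from -1.12 to 1.50 that such counts leave wide.

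Cdkn2c and Cdkn2d, the more abundant INK4 genes, did not pass the test in either line. Cdkn2c (p18) stood at 17.9 to 22.7 CPM in WT, 18.9 to 20.9 CPM in OVE853 and 20.5 to 24.2 CPM in OVE918, with log2 fold changes of 0.03 and 0.17. Cdkn2d (p19INK4d) stood at 10.9 to 14.6 CPM in WT and 10.4 to 11.1 CPM in OVE853, and at 12.2, 12.3, 12.0 and 17.4 CPM in OVE918. Its log2 fold changes were -0.28 in OVE853 (95% interval -0.64 to 0.09) and 0.05 in OVE918 (-0.30 to 0.39), and the sign in OVE918 turned without WT replicate 2 or OVE918 replicate 4.

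Myc, the member that TGF-β is known to repress, was low in all libraries, with 22 to 108 counts. Its level was 1.65, 4.14 and 3.35 CPM in WT, 1.17, 1.95 and 2.98 CPM in OVE853 and 0.94, 1.15, 1.11 and 1.88 CPM in OVE918. OVE918 replicate 4 overlapped with WT replicate 1, and the other OVE918 libraries lay below all others. The log2 fold change was -1.24 in OVE918 (SE 0.40, FDR 0.0596, edgeR with filterByExpr) and -0.57 in OVE853 (SE 0.43, FDR 0.376). In OVE918 it passed with DESeq2 (FDR 0.0257), with voom sample weights (FDR 0.0259), with no filter (FDR 0.0462) and with the replicate number as a block (FDR 0.0335), and without WT replicate 1 (FDR 0.0213) or OVE918 replicate 4 (FDR 0.0448).

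Mycn, which was above Myc in every library, stood at 40.6, 43.3 and 19.4 CPM in WT, 48.0, 42.8 and 45.9 CPM in OVE853 and 45.4, 45.0, 50.3 and 41.0 CPM in OVE918. All libraries but WT replicate 3 lay between 40.6 and 50.3 CPM. The log2 fold changes of 0.41 in OVE853 (FDR 0.242, edgeR) and 0.40 in OVE918 (FDR 0.238) were 0.12 and 0.11 without WT replicate 3. The difference between the lines was -0.01, with a 95% interval from -0.49 to 0.48. Per length Mycn exceeded Myc 5.10- to 21.8-fold in the WT libraries, 13.6- to 36.1-fold in OVE853 and 19.2- to 42.7-fold in OVE918.

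Trp53 was elevated in both lines, by less than the fold change of 2 that a differentially expressed gene (DEG) had to reach here beside an FDR of 0.05. Its level was 34.2, 33.7 and 28.2 CPM in WT, 44.7, 43.6 and 52.2 CPM in OVE853 and 39.1, 44.1, 42.1 and 40.2 CPM in OVE918. WT did not overlap with either line, and the lines overlapped with each other. Trp53 rose 1.46-fold in OVE853 (log2 fold change 0.55, SE 0.11, FDR 0.00742) and 1.29-fold in OVE918 (0.37, SE 0.10, FDR 0.0268) by the quasi-likelihood test of edgeR, Benjamini-Hochberg adjusted. The OVE853 call was made in all 10 fits without a library with the FPKM filter. With filterByExpr it was not made in every such fit, where as few as 0 of the 10 members passed. The OVE918 call was lost without WT replicate 3 (FDR 0.0868), OVE918 replicate 2 (FDR 0.0577) or OVE918 replicate 3 (FDR 0.0669), with only these groups in the fit (FDR 0.0571) and with the replicate block (FDR 0.0722). The tested genes whose log2 CPM followed Trp53 most closely over the 10 libraries were Cited2 (Pearson r 0.98), Stat5a (r 0.97) and Arhgap27 (r 0.97), given as a description over libraries that include the 3 groups.

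**Figure D3:**
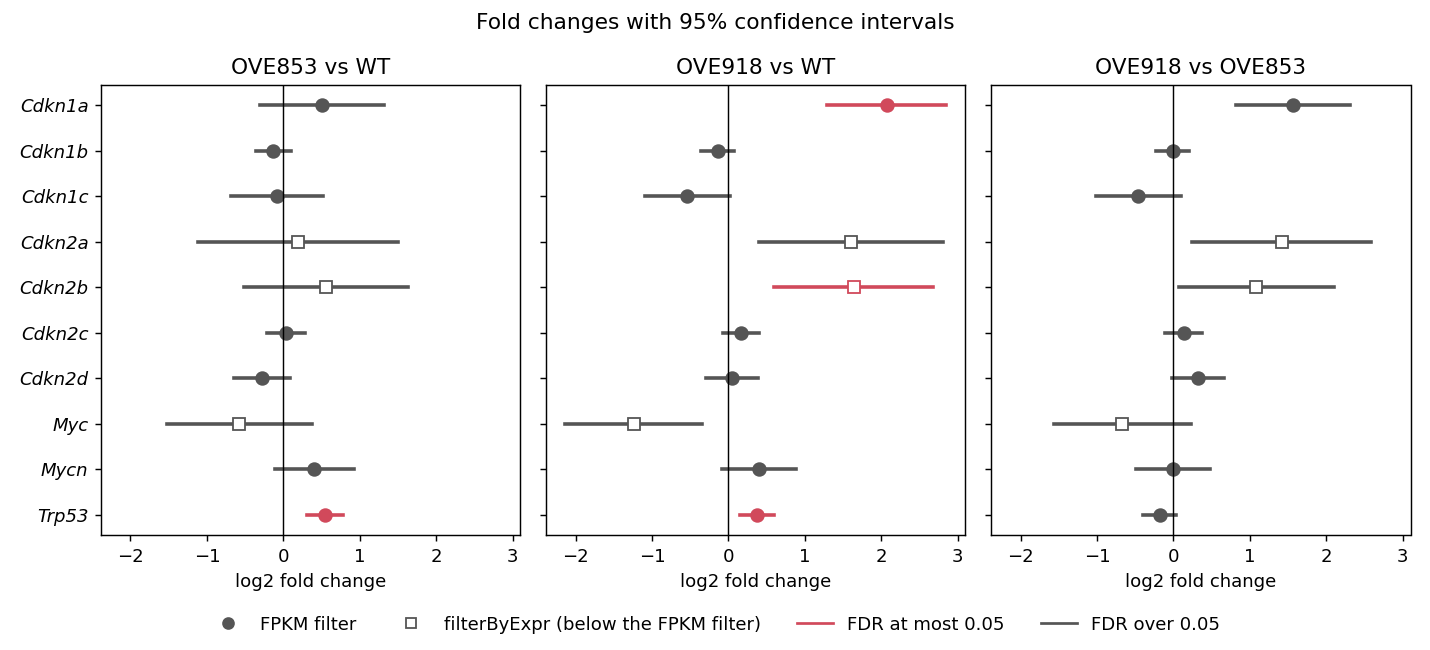
Log2 fold changes (x axis) of the 10 genes with 95% confidence intervals in the 3 contrasts, with circles for genes past the FPKM filter, open squares for genes tested only with filterByExpr and red for an FDR of at most 0.05. Trp53 is red in both line contrasts, Cdkn1a and Cdkn2b in OVE918 against WT alone, and no gene between the lines.

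**Figure D4:**
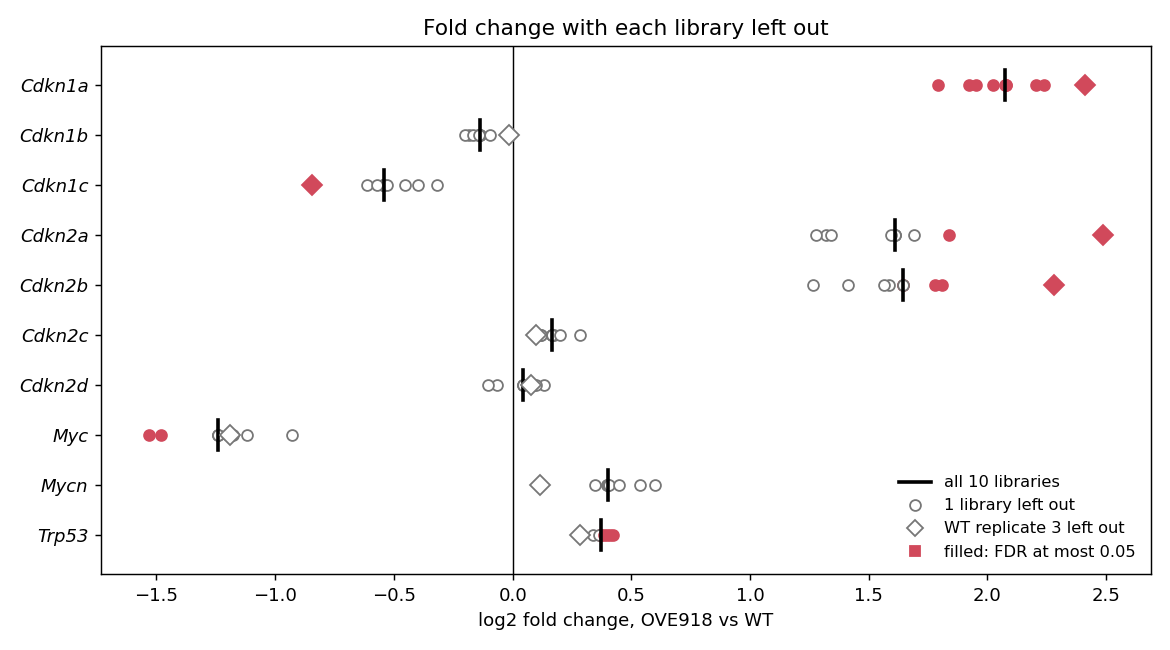
Log2 fold change in OVE918 against WT (x axis) for each gene with all 10 libraries (bar) and with 1 library left out (circles, or diamonds for WT replicate 3, filled at an FDR of at most 0.05). Cdkn1a is filled in every fit, whereas the diamonds of Cdkn1c, Cdkn2a, Cdkn2b and Mycn lie away from the other points.

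Around these members, 10 lists of genes that act with them were counted, beside a median log2 fold change over all tested genes of -0.01 in OVE853 and 0.01 in OVE918. Unless filterByExpr is named, the counts use the FPKM filter and leave out list genes below it. Of all tested genes, 15.8% passed an FDR of 0.05 in OVE853 and 19% in OVE918. With so few genes per list, the counts are not read as results about a list. Of 9 tested G1 and S phase cyclins, CDKs and Cdc25a, 1 rose in each line: Cdk2, the partner of cyclins E and A, in OVE853 (12.4 ± 3.21 to 19.4 ± 1.98 CPM, log2 fold change 0.66) and Cdk4, the target of the INK4 proteins, in OVE918 (98.9 ± 18.2 to 131 ± 9.54 CPM, log2 fold change 0.40). The list medians were 0.21 and 0.30. With filterByExpr all 10 genes of this list were tested, and 0 passed in OVE853 (lowest FDR 0.0555, edgeR) and 1 in OVE918. Of 9 tested RB and E2F genes, E2f4 and E2f5, which pair with the pocket proteins in resting cells, rose in both lines (E2f5 by 0.61 and 0.70, E2f4 by 0.45 and 0.34 on the log2 scale), and Rbl2, encoding the pocket protein p130, fell by 0.52 in OVE918. Their list medians were 0.30 and 0.34.

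Of 9 tested MYC partners and antagonists, from a list that also holds the MYC family gene Mycl, 3 fell in both lines and 0 rose. Max, the obligate partner of MYC proteins, went from 51.9 ± 7.59 CPM in WT to 33.2 ± 1.89 CPM in OVE853 (log2 fold change -0.65) and 35.5 ± 2.92 CPM in OVE918 (-0.55). The MAX-binding antagonists Mxd4 (-0.47 and -0.33) and Mxi1 (-0.36 and -0.47) fell as well, and WT did not overlap with either line for any of the 3. The list medians were -0.08 and 0.01. Of 16 tested MYC target genes, 3 rose in OVE853 and 4 in OVE918, with 0 lower, and the list medians were 0.21 and 0.22. The nucleolar genes Nop56 (0.30 and 0.29) and Nop58 (0.56 and 0.52) rose in both lines, the lactate dehydrogenase gene Ldha in OVE853 (0.36), and Npm1 (0.44) and Fbl (0.38), which also encode nucleolar proteins, in OVE918. Fbl completes the count and was named after its value was seen. With filterByExpr 2 of the 16 MYC target genes rose in OVE853 and 3 in OVE918, with 0 lower.

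Among 16 tested p53 regulators and targets, 0 rose in OVE853 and 1 rose in OVE918, while 1 fell in each line. Sesn1, a p53 and FOXO target of the sestrin family, went from 88.2 ± 19.8 CPM in WT to 41.5 ± 5.34 CPM in OVE853 (log2 fold change -1.09) and 39.5 ± 2.97 CPM in OVE918 (-1.16), with edgeR FDR values of 0.00147 and 0.000337. Phlda3, a p53-induced inhibitor of AKT, rose from 17.4 ± 1.93 to 29.4 ± 9.31 CPM in OVE918 (log2 fold change 0.75, FDR 0.0374, edgeR). The list medians were 0.05 in OVE853 and 0.29 in OVE918. With filterByExpr all 20 genes of this list were tested. In OVE918 2 rose and 1 fell, 2 of these 3 were DEGs, and the highest log2 fold change was 2.54. In OVE853 0 rose and 1 fell, with a highest log2 fold change of 1.98. These highest values belong to list genes below the FPKM filter, and the value of 2.54 is not tied here to a called gene. Of 11 tested SMADs, FOXOs and cofactors of the cytostatic response, Smad3, which carries the TGF-β signal to the nucleus, rose in OVE853 (73.7 ± 8.36 to 109 ± 7.93 CPM, log2 fold change 0.56) and had a log2 fold change of 0.05 in OVE918 (FDR 0.833, edgeR). In OVE918 Foxo3, a partner of SMADs at the p21 promoter, fell by 0.40, Smad2 by 0.25 and Id3, an inhibitor of differentiation factors, by 0.42 on the log2 scale, the last with a WT range that overlapped. The list medians were 0.07 and -0.10. With filterByExpr all 12 genes of this list were tested. In OVE918 2 fell and 0 rose, 1 of them a DEG, at a lowest log2 fold change of -2.93 and a lowest FDR of 0.00407 (edgeR). In OVE853 1 rose and 0 fell, with a lowest log2 fold change of -1.43. These lowest fold changes belong to the list gene below the FPKM filter.

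Of 11 tested genes for the turnover of CDK inhibitors and MYC, 0 passed in OVE853, where Dtl had a log2 fold change of 0.79 (FDR 0.158, edgeR) and of 0.42 without WT replicate 3 (FDR 0.319), and Cks2, a CDK-binding subunit, rose in OVE918 (4.06 ± 1.12 to 8.48 ± 1.81 CPM, log2 fold change 1.07). The list medians were 0.03 and 0.06. With filterByExpr all 12 genes of this list were tested, and 1 rose in OVE853 (lowest FDR 0.0353, edgeR) and 2 in OVE918. Of 7 tested Polycomb regulators of the Ink4 locus, Cbx7, whose protein represses Cdkn2a, fell in both lines, from 26.1 ± 15.1 CPM in WT to 10.2 ± 1.19 CPM in OVE853 (log2 fold change -1.36) and 7.53 ± 1.28 CPM in OVE918 (-1.80), with 14.0, 21.3 and 43.0 CPM in WT replicates 1 to 3. Without WT replicate 3 its log2 fold changes were -0.80 in OVE853 (FDR 0.0302, edgeR) and -1.23 in OVE918 (FDR 0.00132), and the OVE853 call was lost without any 1 of the OVE853 libraries. Suz12 rose in OVE853 (0.46), and the list medians were 0.17 and 0.07. In the imprinted domain around Cdkn1c, Slc22a18 fell in both lines (-1.05 and -0.69, the latter at an edgeR FDR of 0.0486 with WT replicate 1, at 4.27 CPM, inside the OVE918 range of 4.11 to 4.60 CPM) and Tssc4 rose in OVE918 (0.49), of 6 tested genes with medians of 0.08 and 0.06. With filterByExpr 0 of these 6 genes fell in OVE918, so that the Slc22a18 call was lost there, and 1 rose.

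Of 16 proliferation genes, 0 passed in OVE853 and 1 in OVE918, although the fitted fold change was above 0 for 15 and 16 of them, and the list medians of 0.51 and 0.63 were the largest of the 10 lists. Without WT replicate 3 the medians were 0.21 and 0.34, 13 and 14 of the genes were above 0 and 0 passed in either line. Tyms, encoding thymidylate synthase, rose in OVE918 (10.6 ± 2.56 to 15.9 ± 1.78 CPM, log2 fold change 0.59, FDR 0.0293, edgeR), and without WT replicate 3 its value was 0.40 (FDR 0.0649). Bub1 had a log2 fold change of 1.03 in OVE853 (FDR 0.116, edgeR), and of 0.62 without WT replicate 3 (FDR 0.197).

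Most calls in these lists lay near the threshold. Of the 14 calls in OVE853, 4 were made in all 10 fits that left out a library (E2f4, E2f5, Max and Sesn1), and without WT replicate 3 the calls of Cdk2, Mxi1, Nop58, Ldha, Smad3 and Suz12 were lost, at edgeR FDR values of 0.0631 to 0.132. Of the 21 calls in OVE918, 8 were made in all 10 fits (E2f4, E2f5, Max, Mxi1, Nop56, Sesn1, Cks2 and Cbx7), and 12 were lost without WT replicate 3 (Cdk4, Rbl2, Nop58, Npm1, Fbl, Phlda3, Smad2, Foxo3, Id3, Slc22a18, Tssc4 and Tyms), at edgeR FDR values of 0.0524 to 0.202. The Smad2 and Slc22a18 calls in OVE918 were lost in 9 of the 10 fits. These fits of the lists were added after seeing the data.

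**Figure D5:**
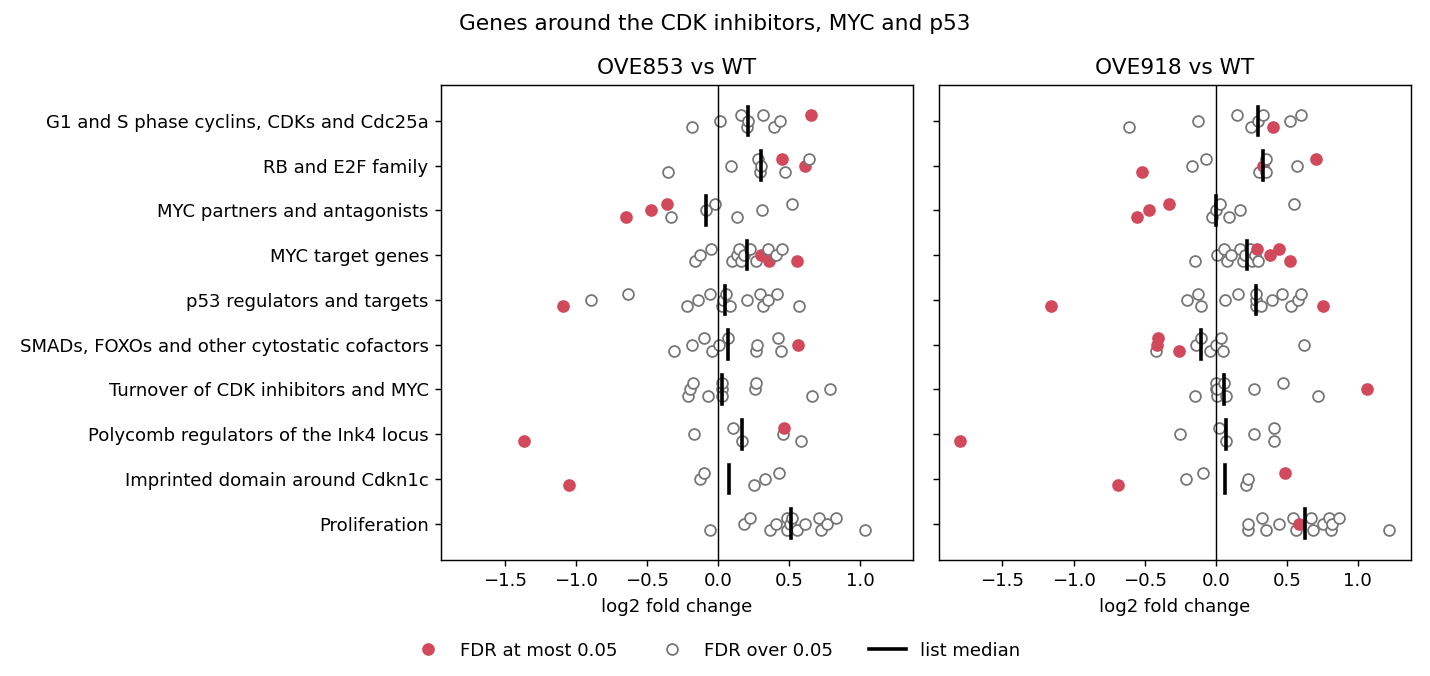
Log2 fold changes (x axis) of the tested genes of the 10 lists in each line against WT, filled red at an FDR of at most 0.05, with the list median as a black bar. The red points lie on both sides of 0, those of the MYC partners all below it, and the bars of the proliferation genes lie farthest to the right at 0.51 and 0.63 (0.21 and 0.34 without WT replicate 3).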

How the data were processed

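RNA-seq libraries of 10 pools of lens epithelium were compared by the groups of the sample labels. The authors trimmed reads (Cutadapt 5.2), aligned them to mm39 (STAR 2.7.11b) and counted read pairs per RefSeq gene with featureCounts 2.0.8 in reverse-stranded mode, and the deposited counts are whole numbers without normalization. Here they were tested in R 4.3.3 with edgeR 4.0.16 (TMM factors, robust quasi-likelihood fit of all 3 groups, Benjamini-Hochberg adjustment within each of 3 contrasts). DEGs passed an FDR of 0.05 with a log2 fold change of at least 1 in either direction. FPKM was computed from library totals and GENCODE exon lengths in GRCm39. Likeness was computed on log2 CPM with an offset of 0.5. Members and lists were chosen with earlier results of these data known. From each list the 3 called genes of lowest FDR per line were named, or the largest fold change where none passed. Alternatives used DESeq2 1.42.0, limma 3.58.1 voom, other filters and scaling, blocks and leaving out each library. The steps were tested on simulated data. Replicates of a group differed beyond counting error (chi-square per degree of freedom 12.8 to 129 over 12 pairs). Library totals and the spread between pools limit the precision. RefSeq windows were matched by symbol, and Cdkn1c and Myc had none.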

Additional observations from a re-analysis of the deposited data

Results flagged for a closer look

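On the CPM scale, Cdkn2d had 1 library far from the rest of its group. OVE918 replicate 4 stood at 17.4 CPM and the other OVE918 libraries at 12.0 to 12.3 CPM, a gap of 0.947 of the group's range above Dixon's 95% critical value for 4 samples. The OVE918 levels of 37 genes were screened this way and 1 passed, where chance alone exceeds that value in about 1 of 20 groups. The same library was also the highest in CPM for Cdkn1a, Cdkn2a, Cdkn2b and Cdkn2c and for Myc within OVE918, and it had the lowest TMM factor (0.881). In FPKM, which uses no TMM factor, Cdkn2d stood at 6.77, 7.96, 7.31 and 9.64 in OVE918 replicates 1 to 4. The screen was not run on that scale.

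Id3, an inhibitor of differentiation factors and a known SMAD target, differed between the lines, with a log2 fold change of -0.68 for OVE918 minus OVE853 (FDR 0.0415, edgeR's quasi-likelihood test). Its level was 161 ± 23.2 CPM in OVE853 (SD, n = 3), 100 ± 6.90 CPM in OVE918 (SD, n = 4) and 133 ± 22.4 CPM in WT (SD, n = 3). It did not pass with filterByExpr, where 0 genes of its list differed between the lines at a lowest FDR of 0.0628. The Id3 call was also lost without WT replicate 2, any 1 of the OVE853 libraries or OVE918 replicate 1, 3 or 4. The edgeR FDR values in these fits were 0.0533 to 0.190.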

How the results depend on the processing

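The Cdkn1a rise in OVE918 and the Trp53 rise in OVE853 were called under all 10 alternatives, filterByExpr among them. With the FPKM filter they were also called in all 10 fits without a library. With filterByExpr, leaving out a library took the OVE853 count as low as 0 of 10 members, so that the Trp53 call was lost there. The alternatives that start from filterByExpr were chosen after seeing the data. With filterByExpr the DEGs were 1244 in OVE853 and 1587 in OVE918, and with no filter 1061 and 1548, against 491 and 620. Leaving out a library gave 350 to 684 DEGs in OVE853, 536 to 750 in OVE918 and 5 to 96 between the lines, where the full count of 54 became 107 with DESeq2, 97 with only these groups, 124 with voom sample weights, 28 with the replicate block and 33 with the R number of the authors' script as a block. Members called without a library were 1 to 1 in OVE853 (0 to 1 of all 10 with filterByExpr), 1 to 2 in OVE918 (1 to 4) and 0 to 1 between the lines (0 to 1). In OVE918 the count was 1 with only these groups (1 of all 10), 1 with the replicate block and 3 with voom, and of all 10 it was 5 with DESeq2 and 6 with voom. Between the lines it was 1 with DESeq2 and with only these groups and 2 with voom, on either filter. Values near 0 changed sign: in OVE853 Cdkn1c (0.147 with the R number block) and Cdkn2c (-0.0872 with voom), in OVE918 Cdkn2d (-0.0941 with the replicate block) and Cdkn2c (-0.0219 with voom), and between the lines Cdkn1b and Mycn. With filterByExpr these were 0.00726 (Cdkn1b) and 0.00668 (Mycn), with DESeq2 0.00599 and 0.0054, with no filter 0.00922 and 0.00848, with upper-quartile factors 0.0279 and 0.0273, with only these groups 0.0157 and 0.0156, with the replicate block 0.0358 and 0.046, and with voom 0.0154 and 0.0424, beside 0.0327 for Cdkn1b with the R number block. Without a library, Cdkn1c spanned -0.387 to 0.139, Cdkn2c -0.0332 to 0.146 and Cdkn2a -0.0951 to 1.05 in OVE853, Cdkn2d -0.102 to 0.133 in OVE918, and between the lines Cdkn1b -0.0359 to 0.0354 and Mycn -0.059 to 0.0397. The causes were not tested. No pairing of the samples by replicate number was seen: 0 of 9 same-numbered pairs had a correlation of deviations over 0.1 (-0.32 to 0.10, other pairs -0.43 to 0.42), and 1 of 9 libraries lay closest to its own number. With so few libraries per group, this screen cannot settle whether samples were paired. Cdkn2a and Myc rest on 4 to 108 counts per library.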
